A study of Mus musculus with 2 samples.

Results

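The Hox genes are the homeobox transcription factors that lie in 4 clusters and carry positional information along the head-to-tail axis. Members were taken by symbol (Hox, the cluster letter a, b, c or d, and a paralog number) with at least 1 protein-coding transcript in the deposited annotation. This gave 39 genes of the 55536 annotated genes of the gene table and of its 22028 protein-coding genes. They were measured by total RNA-seq of the adrenal gland of female B6CASTF1/J mice, an F1 hybrid strain, aged 10 days. There was 1 group with 2 libraries, made with a strand-keeping kit from 300 ng of RNA each and holding added spike-in RNAs, called replicate 1 and replicate 2 here. The labels name Female 03 for the tissue of replicate 1 and Female 04 for that of replicate 2, yet repeat Female 03 and 1 donor entry for both libraries. The spread between the libraries may therefore be that of separate animals or a technical one, and no treatment, genotype or time was compared.

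Hox proteins bind DNA through their homeodomain, mostly together with cofactors of the PBX and MEIS families. Within each cluster the genes lie in the order in which they act along the body: low paralog numbers act in the hindbrain and neck, middle numbers in the trunk, and high numbers in the lumbar, sacral and tail regions and the distal limb. The pattern is set in the embryo and kept in many adult mesenchymal tissues through Polycomb and Trithorax chromatin complexes. The clusters also carry microRNA genes and antisense or intergenic RNAs.

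The clusters' microRNA families are shown because they tie a short sequence to the members it can pair with. They are given as RefSeq mature sequences (GRCm38.p6), with the seed, bases 2 to 8 from the 5′ end, in capitals.
mmu-miR-10a-5p: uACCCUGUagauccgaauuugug
mmu-miR-10b-5p: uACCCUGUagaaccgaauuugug
mmu-miR-196a-5p: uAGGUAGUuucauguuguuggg
mmu-miR-196b-5p: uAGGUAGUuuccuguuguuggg
The gene of miR-10a lies on chromosome 11 in the Hoxb cluster and that of miR-10b on chromosome 2 in the Hoxd cluster, and both share the seed ACCCUGU. Mature miR-196a comes from genes in the Hoxb cluster and, on chromosome 15, the Hoxc cluster. The gene of miR-196b lies on chromosome 6 in the Hoxa cluster, and miR-196a and miR-196b share the seed AGGUAGU. In the longest annotated 3′ UTR of each member, 4 of 39 (10.3%) held the 7-base match to the miR-10 seed, among them Hoxa3, Hoxb3 and Hoxd1, beside 12.6% of the 20913 protein-coding genes with a 3′ UTR. The match to the miR-196 seed stood in 9 of 39 (23.1%), among them Hoxa4, Hoxa5, Hoxa7, Hoxa9, Hoxb1, Hoxb6, Hoxb7 and Hoxc8, beside 6.13% of those genes. Median 3′ UTR length was 966 bases in the members and 969 in all genes. Hoxb8, whose mRNA is a textbook target that miR-196 directs to cleavage, held no such 7-base match but a site that paired over the full length of miR-196a. It lies at chr11:96284888-96284909 on the plus strand (mm10), from base 418 of the 3′ UTR, and the capitals mark the bases opposite the seed.
Hoxb8 site: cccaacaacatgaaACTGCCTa
All 22 bases of miR-196a paired there, 21 as Watson-Crick pairs and 1 as a G-U wobble at position 5 of the microRNA. In 2 of the 20913 genes, Hoxb8 and Rps6ka2, every base of miR-196a paired at 1 site when wobbles were allowed, and the best site of any other member paired 19 bases. A sequence match is a description and was not tested as a target. The mature microRNAs themselves were not measured by this library type: their hairpin genes held 0 or 1 counts.

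Each library held 33378436 to 35636846 expected counts. Genes of the adrenal cortex (7 of 7) and chromaffin cells (6 of 6) were detected in both libraries, as the labelled tissue has them. None of them was called different between the libraries, beside 6.85% of all genes tested. Genes of other tissues were present and unequal. In replicates 1 and 2 respectively, liver genes summed to 5637.55 and 1092.19 TPM, skeletal muscle genes to 3086.89 and 996.52 TPM, and kidney tubule and podocyte genes to 15.99 and 249.14 TPM. TPM, the share of transcripts scaled to a fixed total, allows for transcript length, so that levels of different genes can be compared within a library.

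At least 1 TPM in both libraries was reached by 23 of the 39 Hox genes, 3 reached it only in replicate 2 (Hoxa10, Hoxc10 and Hoxd10), and 13 in neither. By the same threshold 25.5% of all annotated genes and 58.2% of protein-coding genes were detected. The Hox genes together reached 151.45 and 166.66 TPM in replicates 1 and 2 (159 ± 10.8, SD, n = 2). Detection was fullest in the trunk groups: all 11 members of paralog groups 5 to 8 were detected, 8 of 12 of groups 1 to 4, and 4 of 16 of groups 9 to 13. In bulk tissue, fewer cells that use a gene and less RNA per cell cannot be told apart.

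**Figure D1:**
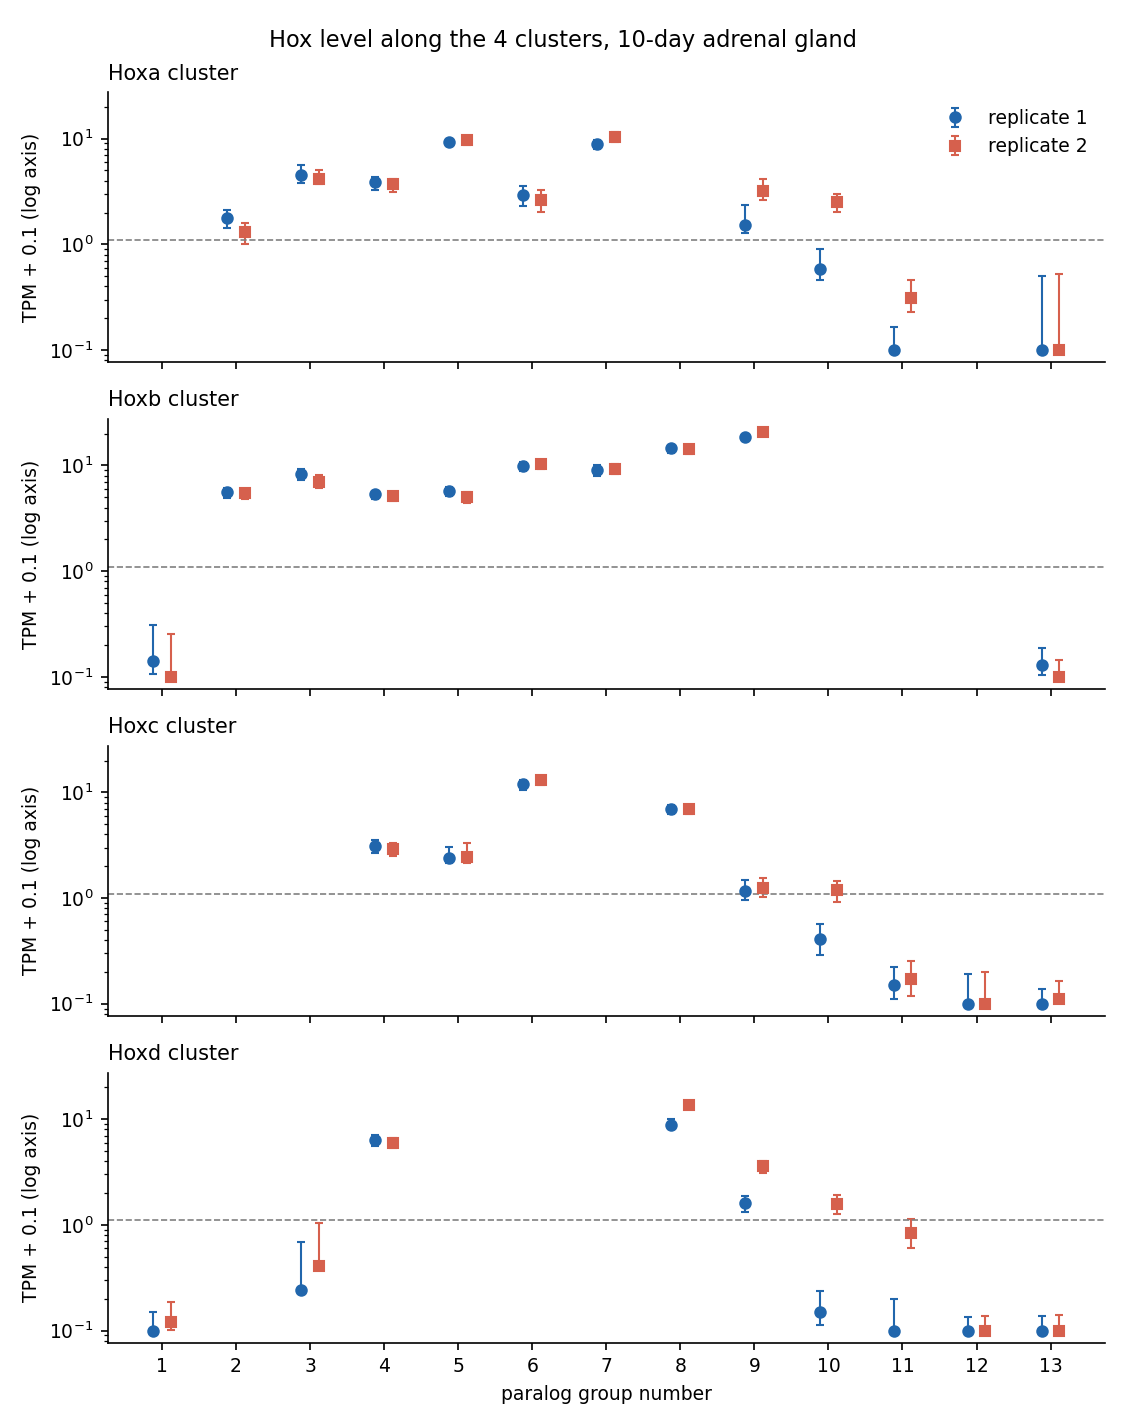
Level of the Hox genes shown in TPM + 0.1 on a log axis, by paralog group number, 1 panel per cluster. Circles are replicate 1, squares replicate 2, bars the deposited credibility intervals, and the dashed line marks 1 TPM. Levels in groups 4 to 8 all lie above the dashed line and those of groups 12 and 13 lie at the bottom, and the squares of groups 9 to 11 in the Hoxa and Hoxd clusters lie above the circles.

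Paralog groups 5 to 8, whose members pattern the thoracic region, held 58.6% ± 0.73 (SD, n = 2) of the summed Hox level. Hoxb8 stood at 14.53 TPM in replicate 1 and 14.17 TPM in replicate 2. Hoxc6, a gene of the thoracic boundary, stood at 11.77 and 13.11 TPM. Hoxd8, a paralog of Hoxb8, stood at 8.64 and 13.49 TPM. The libraries were close for Hoxb8 and Hoxc6, while Hoxd8 was higher in replicate 2, so that Hoxc6 and Hoxd8 cannot be ordered beyond their spread. Hoxb6 stood at 9.84 and 10.26 TPM, and Hoxb7 at 9.0 and 9.23 TPM. Hoxa5, known for its part in lung and neck development, stood at 9.26 and 9.55 TPM, and Hoxa7 at 8.77 and 10.29 TPM. By these values Hoxb6 lay above Hoxa5 and Hoxa5 above Hoxb7 in both libraries, while the range of Hoxa7 covered all 3. The deposited intervals of Hoxb6, Hoxa5 and Hoxb7 overlapped in each library. In a second quantification of the same reads Hoxa5 (15.33 TPM) lay above Hoxb6 (14.35 TPM) in replicate 2. Hoxc8, a gene of the lower thoracic region, stood at 6.93 and 6.85 TPM. Hoxb5 stood at 5.66 and 4.98 TPM. The lowest of the 11 were Hoxa6, at 2.84 and 2.52 TPM, and Hoxc5, at 2.29 and 2.34 TPM.

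Groups 1 to 4, the genes of the hindbrain and neck, held 23.4% ± 2.88 (SD, n = 2) of the summed level. In group 1, which acts first and most anteriorly in the hindbrain, Hoxb1 and Hoxd1 held 1 count or none in either library. The detected genes of groups 2 and 3 were those of the Hoxa and Hoxb clusters, with the Hoxb gene above its Hoxa paralog in both libraries. Hoxb3 stood at 8.19 and 6.93 TPM and Hoxb2 at 5.51 and 5.39 TPM. Hoxa3, which patterns the neck and the pharyngeal organs, stood at 4.45 and 4.06 TPM, and Hoxa2 at 1.69 and 1.20 TPM. Hoxd3 stayed at 0.14 and 0.31 TPM, with 12 and 24 counts. All 4 members of group 4 were detected, in the order Hoxd4 (6.20 and 5.88 TPM), Hoxb4 (5.25 and 5.10), Hoxa4 (3.78 and 3.59) and Hoxc4 (3.04 and 2.83). Neighbours in that order did not overlap between the libraries, so that group 4 kept the same order in both. The deposited intervals of Hoxd4 and Hoxb4 overlapped in each library, as did those of Hoxa4 and Hoxc4. Of the Hoxd4 level, 47.3% in replicate 1 and 54.1% in replicate 2 lay in protein-coding transcripts.

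Groups 9 to 13 held 18.0% ± 3.61 (SD, n = 2) of the summed level, most of it in 1 gene of group 9. Group 9 alone held 15.9% ± 1.49 (SD, n = 2). Hoxb9 was the highest of all 39 genes, at 18.38 TPM in replicate 1 and 20.43 TPM in replicate 2, and ranked 3581 by mean level among the 22028 protein-coding genes. It lay above Hoxb8, next below it, in both libraries. The other group 9 genes were far lower: Hoxd9 stood at 1.52 and 3.53 TPM, Hoxa9 at 1.44 and 3.08 TPM, and Hoxc9 at 1.07 and 1.14 TPM. Group 10 lay under 1 TPM in replicate 1 and above it in replicate 2, with Hoxa10 at 0.48 and 2.40 TPM, Hoxd10 at 0.05 and 1.49 TPM, and Hoxc10 at 0.31 and 1.09 TPM. In group 11, known for the forearm and the kidney, Hoxd11 stood at 0.00 and 0.74 TPM, Hoxa11 at 0.00 and 0.21 TPM, and Hoxc11 at 0.05 and 0.07 TPM. Groups 12 and 13 were at the floor: Hoxa13, Hoxc12, Hoxd12 and Hoxd13 held no count in either library in the gene table, and Hoxb13 and Hoxc13 held at most 2. A count of 0 allows up to 3 counts, or 0.0850 and 0.0907 CPM (counts scaled to the library total) in replicates 1 and 2, by counting error only.

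**Figure D2:**
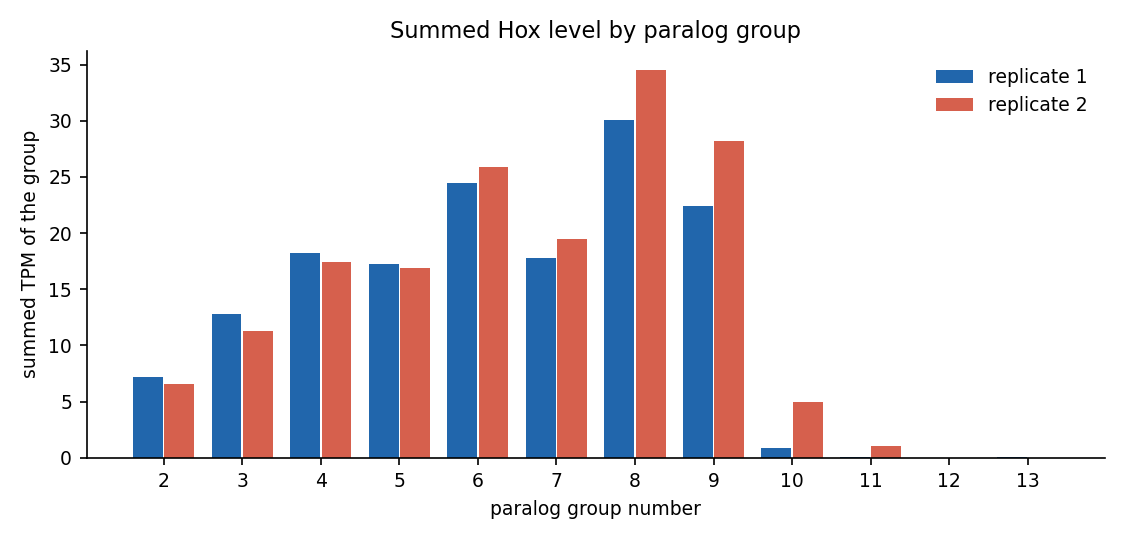
Summed TPM of the members of paralog groups 2 to 13; bars start at 0, blue for replicate 1 and red for replicate 2. Group 8 reaches 30.1 and 34.5 TPM and group 9 reaches 22.4 and 28.2 TPM, while groups 10 to 13 stay below 5 TPM.

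The 4 clusters did not contribute equally. The Hoxb cluster (chr11:96194316-96368256, mm10, all members on the plus strand) held 76.43 TPM in replicate 1 and 76.49 TPM in replicate 2, or 48.2% ± 3.23 (SD, n = 2) of the Hox level. The Hoxa cluster (chr6:52155590-52260880, minus strand) held 33.01 and 37.27 TPM (22.1% ± 0.40). The Hoxc cluster (chr15:102921103-103036852, plus strand) held 25.46 and 27.44 TPM (16.6% ± 0.24). The Hoxd cluster (chr2:74668310-74765142, plus strand) held 16.55 and 25.46 TPM, so that its share was 10.9% in replicate 1 and 15.3% in replicate 2. The Hoxb sum was nearly equal in the libraries and the Hoxd sum was the most unequal.

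Each cluster fell in level towards its high-numbered end. Steps are given as the log2 ratio of TPM + 0.1 between neighbouring members, with the SD over the 2 libraries. In the Hoxb cluster, which has no members between groups 9 and 13, the level was highest at Hoxb9 and then fell by 7.42 ± 0.37 to Hoxb13. In the Hoxc cluster the largest mean fall was from Hoxc8 to Hoxc9 (-2.54 ± 0.07), while in replicate 2 alone Hoxc10 to Hoxc11 fell further (-2.81). In the Hoxa cluster Hoxa7 to Hoxa9 gave -2.12 ± 0.58 and Hoxa10 to Hoxa11 gave -2.77 ± 0.34, and their order turned with the pseudocount: with TPM + 1 the steps were -1.73 and -1.03. In the Hoxd cluster Hoxd8 to Hoxd9 gave -2.17 ± 0.37 and Hoxd9 to Hoxd10 gave -3.43 in replicate 1 and -1.19 in replicate 2. The place of the Hoxd fall thus differed between the libraries: in replicate 2 the level declined in steps from Hoxd8 through Hoxd11, its largest fall being Hoxd11 to Hoxd12 (-3.07), while in replicate 1 it had reached 3 counts at Hoxd10. With TPM + 1 the largest Hoxd fall was Hoxd8 to Hoxd9 in both libraries (mean -1.81).

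The libraries differed in the high-numbered Hox genes. Of the 29 members with a summed count of at least 20, 5 were called higher in replicate 2 (Hoxa10, Hoxc10, Hoxd9, Hoxd10 and Hoxd11) and 0 higher in replicate 1, also with edgeR. At an unadjusted p under 0.05 by the binomial test, 1 member, Hoxb5, was higher in replicate 1. The call was an exact two-sided binomial test of the counts of these libraries, with a Benjamini-Hochberg adjusted p of at most 0.05 over 18883 genes and at least a 2-fold ratio. Under it 6.85% of all genes tested were called, 2.74% higher in replicate 2 and 4.11% higher in replicate 1. The test compares 2 libraries and measures counting error only. Under edgeR's exact test, which adds a common spread, 3 of 29 members were called (Hoxa10, Hoxd10 and Hoxd11) beside 2.61% of all genes. That spread was estimated from these same 2 libraries taken as replicates, so that it is not independent of the difference tested. Under both tests the calls include Hoxd10 and Hoxd11, which had to be high in replicate 2 to reach the summed count of 20.

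Hoxa10, a lumbar patterning gene also known for the uterus, held 25 counts in replicate 1 and 124 in replicate 2. Its level was 5.53-fold higher in replicate 2 (95% interval 3.57 to 8.87, exact binomial test, adjusted p = 3.03e-18). Hoxc10 held 19 and 62 counts, 3.64-fold higher (2.15 to 6.44, exact binomial test, adjusted p = 1.35e-06). With edgeR's exact test the adjusted p of Hoxc10 was 0.259, the highest of its alternatives, which began at 1.95e-07. Hoxd9 held 104 and 225 counts, 2.41-fold higher (1.90 to 3.07, exact binomial test, adjusted p = 2.59e-13), and edgeR's exact test gave an adjusted p of 0.780, where the alternatives began at 7.10e-15. Hoxd10, a gene of the lumbar spinal cord and hindlimb, held 3 and 80 counts, a ratio of 29.7 with an interval from 9.81 to 147. Hoxd11 held 0 and 49 counts and was at least 18.2-fold higher in replicate 2, against a floor of 3 counts. Hoxd10 and Hoxd11 reached the count minimum only through replicate 2, so that they had to differ to be tested.

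The members next to these 5 genes had smaller ratios or fewer counts. Hoxa11 went the same way, with 0 and 14 counts, at least 5.20-fold higher in replicate 2, but was too low to be tested. Hoxa9 held 112 and 192 counts, a ratio of 1.91 (1.51 to 2.43), and Hoxd8 held 682 and 984 counts, a ratio of 1.61 (1.46 to 1.78). With Hoxb9 and the 5 called genes, 8 members passed the adjusted p without the fold limit, as did 26.5% of all genes tested. Hoxa9 and Hoxd8 passed it by the exact binomial test (3.97e-07 and 1.60e-20) but not the 2-fold limit. Hoxb9, of the same group as Hoxa9, had a ratio of 1.14 (1.06 to 1.22), and Hoxc9 one of 1.14 (0.83 to 1.58), both near 1. None of the 18 tested members of groups 1 to 7 was called, beside 6.85% of all genes tested, so that their lack of calls does not set them apart. Their log2 ratios ran from -0.43 for Hoxa2 to 1.13 for Hoxd3. The median log2 ratio over the 29 members was 0.11, beside -0.01 over all genes tested.

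**Figure D3:**
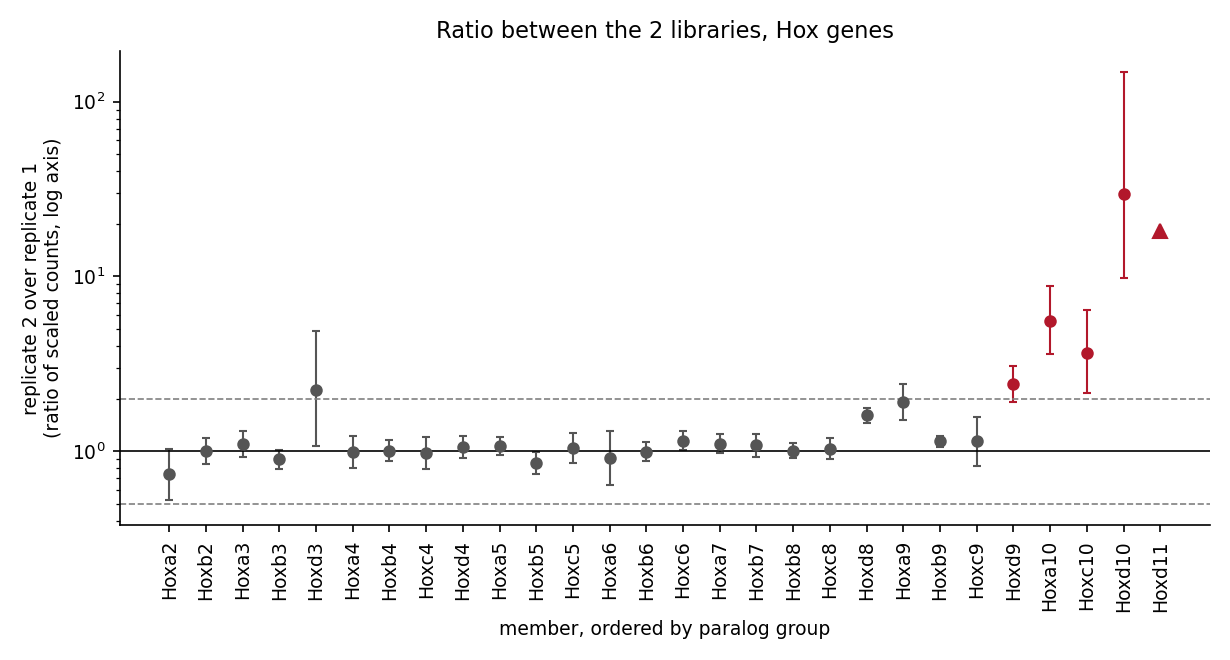
Ratio of scaled counts, replicate 2 over replicate 1, on a log axis for tested Hox genes ordered by paralog group, with exact 95% intervals (counting error only). Red points were called, the triangle for Hoxd11 is a lower bound, and dashed lines mark 2-fold in either direction. Points from Hoxa2 to Hoxc8 lie around 1 except Hoxd3, and those from Hoxd9 to Hoxd11 lie above 2.

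Genes of the kidney were higher in the same library. In the kidney tubule and podocyte list 9 of 10 genes were called higher in replicate 2, beside 2.74% of all genes tested. The transporter gene Slc34a1 of the proximal tubule held 6 counts in replicate 1 and 5450 in replicate 2, and the thick ascending limb gene Slc12a1 held 1 and 1221. The podocyte gene Nphs1 held 0 counts in replicate 1 and 192 in replicate 2, while Podxl, which blood vessels also use, was the 1 gene of the list that was not called. The kidney transcription factors Pax2 (1 and 63 counts) and Pax8 (1 and 147 counts) were called higher in replicate 2 as well. Slc34a1, Slc12a1, Nphs1, Pax2 and Pax8 reached the count minimum only through replicate 2, so that they had to differ to be tested. Pax2 and Pax8 were the 2 called among the 8 tested genes of the nephrogenic mesenchyme and ureteric bud list, which summed to 12.07 and 13.6 TPM. Other genes of that list were lower in replicate 2 without a call: Eya1 held 417 and 283 counts, Osr1 120 and 91, Wnt11 128 and 99, and Ret 509 and 425. Six2, of the nephron progenitors, held 8 and 1 counts, too few to test. Cited1, of the same progenitors, was higher in replicate 2 without a call, and Foxd1, of the renal stroma, held 59 and 65. The 8 tested genes of the list had a median log2 ratio of 0.095. The 8 genes of the capsule and stroma list, which summed to 570.57 and 830.03 TPM, all had a log2 ratio above 0 (0.11 to 1.01, median 0.51). The 1 called was Wt1, at 1.70 and 2.71 TPM. By the scaled counts that the call uses, its log2 ratio was 1.01, just past the 2-fold limit. In that list the mesenchymal factor Tcf21 had a ratio of 1.83 and the collagen gene Col1a1 one of 1.68. The liver list moved the other way, with 8 of 8 genes called higher in replicate 1, beside 4.11% of all genes tested. So did 7 of 8 muscle genes, Myh4 being higher in replicate 2, and 4 of 7 blood genes. None of the 6 brown fat, 6 endothelial or 5 tested neuron genes was called, beside 6.85% of all genes tested. Brown fat genes summed to 3157.81 and 3757.94 TPM. The part of these tissues in the Hox differences was not tested.

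**Figure D4:**
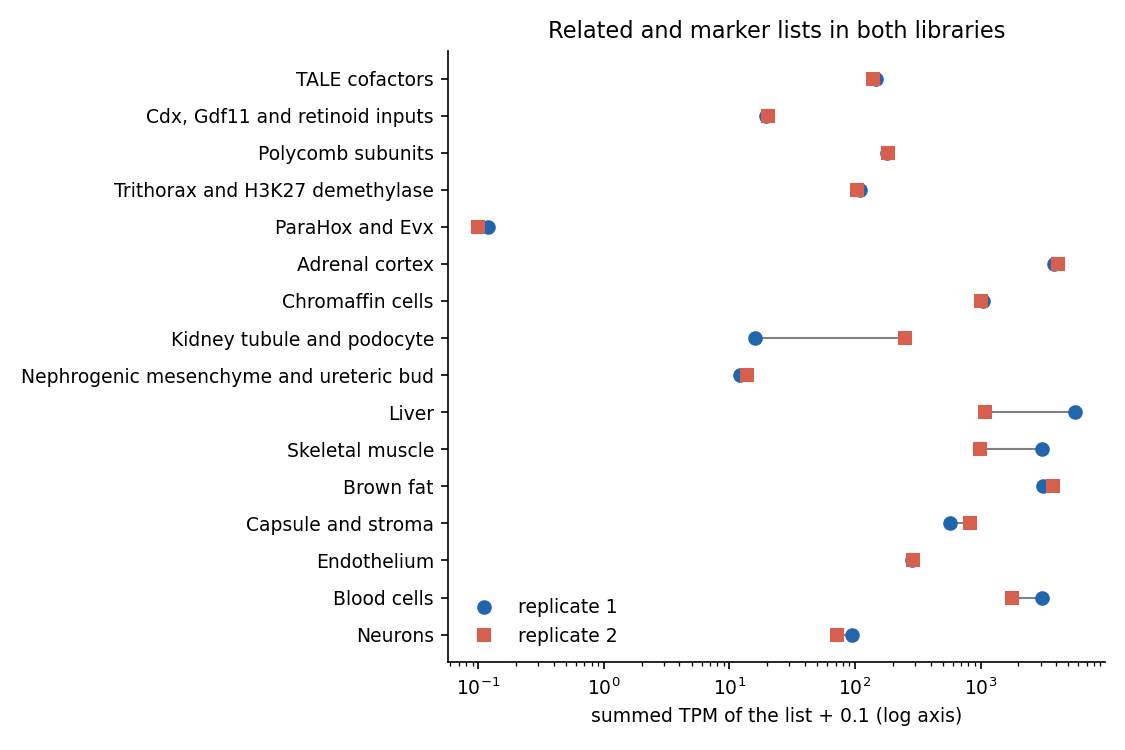
Summed TPM + 0.1 of each gene list on a log axis, circles for replicate 1 and squares for replicate 2. The kidney list lies at 15.99 TPM in replicate 1 and 249.14 TPM in replicate 2 and the liver list lies in the opposite order, while cortex, chromaffin, cofactor and chromatin lists nearly coincide.

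Promoters are shown for 1 gene that was equal in the libraries, Hoxb8, and for 3 that were called, Hoxa10, Hoxd10 and Hoxd11. Each is the 250 bases before a RefSeq start (GRCm38.p6) on the gene's strand, and none overlaps an exon of the annotation used here. Capitals mark matches on either strand to TGATNNAT (the PBX-HOX composite site), TATAAA (the TATA box) and TTTATG (a CDX site).
Hoxb8, chr11:96281655-96281904, plus strand: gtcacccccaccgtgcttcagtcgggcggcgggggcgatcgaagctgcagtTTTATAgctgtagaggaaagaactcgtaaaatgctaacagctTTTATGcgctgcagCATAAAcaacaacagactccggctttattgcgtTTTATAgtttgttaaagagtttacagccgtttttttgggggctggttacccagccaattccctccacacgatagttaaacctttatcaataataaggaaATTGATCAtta
Hoxa10, chr6:52234940-52235189, minus strand: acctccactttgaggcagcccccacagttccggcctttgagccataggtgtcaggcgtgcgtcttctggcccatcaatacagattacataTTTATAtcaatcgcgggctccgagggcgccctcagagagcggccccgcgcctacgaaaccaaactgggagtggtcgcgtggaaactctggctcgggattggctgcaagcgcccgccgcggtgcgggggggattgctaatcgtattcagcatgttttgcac
Hoxd10, chr2:74691641-74691890, plus strand: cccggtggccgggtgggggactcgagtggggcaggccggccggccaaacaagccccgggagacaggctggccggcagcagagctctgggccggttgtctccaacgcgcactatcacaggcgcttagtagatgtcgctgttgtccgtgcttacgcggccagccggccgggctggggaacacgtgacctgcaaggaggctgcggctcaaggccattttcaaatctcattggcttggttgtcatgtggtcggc
Hoxd11, chr2:74682073-74682322, plus strand: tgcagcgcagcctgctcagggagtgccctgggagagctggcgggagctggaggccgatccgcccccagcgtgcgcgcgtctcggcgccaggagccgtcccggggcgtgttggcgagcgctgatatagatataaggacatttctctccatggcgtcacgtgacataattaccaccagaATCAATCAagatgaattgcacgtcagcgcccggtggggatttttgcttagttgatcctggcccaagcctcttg
The Hoxb8 window held 1 composite match, 2 TATA matches and 2 CDX matches. The Hoxa10 window held 1 TATA match, the Hoxd11 window 1 composite match, and the Hoxd10 window none of the 3. Hoxa10 and Hoxd11 each have a further RefSeq window, not printed here: that of Hoxa10, at the start of Hoxa10-201, held none of the 3, and that of Hoxd11, at the start of Hoxd11-201, held 1 CDX match. RefSeq windows were found for 22 of the 39 members, 24 in all. The composite letters stood in 4 of these 24 (16.7%) beside 7.68% of 32851 windows, TATAAA in 4 (16.7%) beside 12.4%, and TTTATG in 5 (20.8%) beside 10.8%. CCAAT stood in 14 of 24 (58.3%) beside 33.8%, GGGCGG in 10 (41.7%) beside 32.7%, and TGACAG (a MEIS site) in 2 (8.33%) beside 15.9%. The Hox windows had a median GC content of 58.6% and 12.5 CpG, beside 52.4% and 6 CpG over all windows. These are counts of letters and say nothing of binding.

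A second, transcript-level quantification of the same reads differed little for the detected members. After rescaling both to nuclear protein-coding genes, 0 of the 23 detected members differed over 2-fold in both libraries, beside 0.9% of 12774 genes. Their log2 differences ran from -0.35 to 0.55. Low genes differed more. Hoxb1 held 15 and 10.3 counts in the second quantification against 1 and 0 in the gene table. Hoxa13 held 3 and 7 counts against 0 and 0, and Hoxd11 held 3.08 against 0 in replicate 1. Hoxb1 marks the hindbrain segment that gives rise to the facial nerve, and it stayed below 1 TPM in both tables. Hoxd3 also passed the call in the second quantification (log2 ratio 1.93, exact binomial test, adjusted p = 0.00117), where its alternatives ran up to an adjusted p of 1.

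The leading transcript was the same in both quantifications and libraries for 18 of the 23 detected members, and for 12 of the 17 with more than 1 transcript. It was protein-coding throughout for 19 of 23. In Hoxa10 the share of the gene's TPM in protein-coding transcripts was 56.25% in replicate 1 and 24.9% in replicate 2. The leading transcript of Hoxa10 in replicate 2 was Hoxa10-203, annotated as a processed transcript with no coding sequence, at 49.48% of the gene's level. In Hoxd11 that share was 50% in replicate 2, with the processed transcript Hoxd11-201 at 49.84%. The higher level of these genes in replicate 2 was thus in part a level of non-coding transcripts, at counts of 124 and 49 for the whole gene. Hoxd9, Hoxd10 and Hoxc10 have 1 annotated transcript each, which is protein-coding. Of the 39 members, 14 overlap a gene on the other strand and 15 one on the same strand. No source used here gives the strand setting of the counting, so that reads of overlapping genes may be shared. Hoxd10 and Hoxd11 both overlap Gm28309 on the same strand, which held 0 and 9 counts.

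Of 46 other annotated genes inside the clusters, 6 were detected in both libraries and 21 were at 0 in both. The highest was Gm53, a long intergenic RNA of the gap between Hoxb13 and Hoxb9 (chr11:96251105-96264868), at 18.04 and 15.87 TPM, near the level of Hoxb9 in replicate 1 and below it in replicate 2. Hotairm1, an antisense RNA of the Hoxa cluster, stood at 9.33 and 7.69 TPM in the gene table but at 3.64 and 2.60 TPM in the second quantification (69 and 65 counts against 39 and 26), although Hox levels as a whole were higher there. The remaining detected RNAs were antisense: Hoxd3os1 at 3.50 and 2.94 TPM, Hoxb5os at 2.27 and 2.90 TPM, Hoxaas3 at 1.16 and 1.67 TPM, and Hoxb3os at 1.23 and 1.34 TPM. Hotair, the RNA of the posterior Hoxc cluster, was at 0 in both. None of the 10 that could be tested was called between the libraries, beside 6.85% of all genes tested, which is near that share for so few genes. At the posterior ends, Hoxa11os held 1 and 11 counts, too few to test. Of 16 protein-coding genes flanking the clusters, 12 were detected, from 1.45 TPM for Skap1 to 150.70 TPM for Hnrnpa3. None of the 12 tested was called, also near the share over all genes. Evx1 and Evx2, the homeobox genes beyond the posterior ends of the Hoxa and Hoxd clusters, were at 0 in both libraries.

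Most of the DNA-binding partners were detected. Of 9 genes of the TALE family (PBX, MEIS and PREP proteins), 8 were detected and none was called, beside 6.85% of all genes tested. Pknox2 (2.07 and 1.29 TPM) and Pbx3 passed the adjusted p of the binomial test without the fold limit, both lower in replicate 2. Meis2, a cofactor that binds beside Hox proteins, stood at 34.46 and 33.56 TPM, Pbx3 at 23.74 and 20.58 TPM, and Pbx2 at 17.31 and 16.62 TPM. The family summed to 147.9 and 139.37 TPM, close to the sum of all Hox genes. All 14 Polycomb subunits were detected and none was called, with Phc2 (25.67 and 25.52 TPM), Suz12 (17.84 and 17.46) and Ezh2 (15.87 and 15.71) among the highest. All 7 Trithorax and demethylase genes were detected and none was called, led by Kdm6a (24.28 and 23.94 TPM), Ash2l (16.90 and 16.94), Kdm6b (16.18 and 15.71) and Kmt2b (16.07 and 12.35).

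Of the genes that set Hox expression in the embryo, the 3 Cdx factors were not detected, while Gdf11 and 3 of 4 retinoid genes were. Cdx1, Cdx2 and Cdx4 held 0 counts in both libraries. The retinoic acid synthase gene Aldh1a2 stood at 9.66 and 10.64 TPM and the receptor gene Rarb at 6.17 and 6.04 TPM. Cyp26b1, which breaks retinoic acid down, stood at 2.01 and 1.71 TPM, and its relative Cyp26a1 held 0 and 3 counts. Gdf11, the signal of the trunk-to-tail transition, stood at 1.47 and 1.75 TPM. In all, 4 of these 8 genes were detected. None of the 4 tested was called, beside 6.85% of all genes tested. None of the 5 ParaHox and Evx genes was detected.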

How the data were processed

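Total RNA-seq of 2 adrenal gland libraries was used. Per the file headers and notes, the authors deposited expected counts, TPM and credibility bounds of TPM (a signal) per gene, the percent by which each transcript contributes to its gene, and estimated counts and TPM of a second, transcript-level quantification, on mm10 with annotation M21. No source used here gives the aligner, quantifier or strand setting.

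Expected counts were rounded and spike-ins left out. Spike-ins took 0.929% to 0.979% of counts. Library sizes were scaled by TMM (edgeR 4.0.16, R 4.3.3). Each gene with a summed count of at least 20 was compared by an exact two-sided binomial test (scipy 1.17.1), adjusted by Benjamini-Hochberg over 18883 genes; log2 ratios used a prior count of 0.5. On data simulated with counting error only, and no further spread between libraries, 100% of genes changed 3-fold were recovered, with 1 false call. The changed genes had an expected summed count of at least 100. This check therefore does not give the error rate for the real libraries or for genes with fewer counts. Alternatives used DESeq2 1.42.0 size factors, total counts, other count minimums, the second quantification and edgeR's exact test with a common dispersion (coefficient of variation 0.282). The dispersion was estimated from the same 2 libraries taken as replicates. Detected means TPM of at least 1 in both libraries. Named are all detected, called or step-bordering members, the 4 highest genes of each related list, and called list genes, of which some are not reported here; marker genes beyond these were picked after their values were seen. Members, lists and tests were chosen with earlier results of these data known.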

Additional observations from a re-analysis of the deposited data

How the results depend on the processing

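The number of detected Hox genes stayed between 19 and 26 under every alternative tried for it (23 and 26 with 1 library left out). The summed level of 159 TPM was 258.7 TPM in the second quantification and, among alternatives chosen after seeing the data, 477.4 TPM when rescaled to nuclear protein-coding genes and 472.3 TPM when the second quantification was rescaled likewise; leaving out 1 library gave 151.45 to 166.66 TPM. The Hoxa share was 20.9% in the second quantification and 20.1% by counts, the Hoxc share 17.9% and 15.0%, and by counts the share of groups 5 to 8 was 53.8% and that of groups 9 to 13 was 21.7%. With TPM + 1 the falls became -1.03 (Hoxa10 to Hoxa11), -4.33 (Hoxb9 to Hoxb13) and -1.91 (Hoxc8 to Hoxc9), so that the largest fall became Hoxa7 to Hoxa9 (-1.73) in the Hoxa cluster and Hoxd8 to Hoxd9 (-1.81) in the Hoxd cluster; the second quantification gave -3.20 and -8.12 for the falls at Hoxa10 and Hoxb9. The calls towards replicate 2 numbered 2 with a summed count of at least 100, since Hoxc10, Hoxd10 and Hoxd11 were then not tested, and 3 with edgeR's exact test; they numbered 5 to 6 under the other alternatives. The median log2 ratio of groups 9 to 13 moved from 1.55 to 0.93 with the minimum of 100, which leaves out Hoxc10, Hoxd10 and Hoxd11. Hoxd10 and Hoxd11 had reached the minimum of 20 only through replicate 2, so that the median of 1.55 includes members that had to be high there. No call reversed. No paired analysis was possible because there is 1 group, and leaving out a library leaves no comparison between libraries. Depth limits the members under 20 summed counts, 10 of 39.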
